A study of Rattus norvegicus with 8 samples.

Results

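The genes described here are 10 transcripts of the acute phase response and of its STAT3 control loop: Serpina3n, Lcn2, Chi3l1, Cp, Ptx3, Steap4, A2m, Hp, Socs3 and Stat3. They are 10 of the 14506 genes that had an array feature annotated with exactly 1 symbol, and each had 1 such feature. The set was chosen by measured values: results of these same arrays were known when the names were picked, so the FGF9 differences of the 10 genes are given as a description. The acute phase response is a change in secreted proteins after injury or infection, best known in liver and also found in reactive astrocytes. Cytokines of the interleukin-6 family bind receptors that share the subunit gp130. JAK kinases bound to these receptors then phosphorylate the transcription factor STAT3, which switches on acute phase genes together with Socs3, whose product blocks the receptor-kinase complex and so closes a negative feedback loop.

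RNA came from rat myelinating cultures, made from dissociated spinal cords of Sprague-Dawley embryos at embryonic day 15.5 and cleared of meninges before dissociation, and was read on Affymetrix Rat Gene ST arrays. The 4 groups were cultures with human FGF9 (fibroblast growth factor 9, which signals through the FGF receptor tyrosine kinases; 100 ng/ml) for 24 h, untreated control cultures at 24 h, cultures with FGF9 for 10 days, and untreated control cultures at 10 days, with 2 arrays each. No deletion, transgene or other agent separates the groups, and the cultures hold several cell types, so a lower level from fewer cells of a type and from less RNA per cell cannot be told apart. The titles and the cell type field call all samples myelinating cultures, but their source is entered as neurosphere-derived astrocytes. Whether the 2 replicates of a group were separate cultures is not labelled, so p-values reflect only how far these arrays differ, which may be technical.

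Values are log2 intensities, and every level and difference below is on that scale. The 4 treated arrays and their same-numbered controls form 4 pairs that share a name prefix, and pair 1 is always given before pair 2. At 24 h pair 1 carries the prefix CL1 and pair 2 the prefix CL2; at 10 days pair 1 carries CL2 again and pair 2 carries AA1. The AA1 arrays stand apart: over all features they correlated at 0.968 with each other and at 0.897 to 0.939 with the other 6 arrays, which correlated at 0.962 to 0.989 among themselves. Markers of fibroblasts, meningeal cells and pericytes averaged 9.65 and 7.34 in FGF9 cultures at 10 days, against 9.36 and 6.86 in control cultures. In AA1 these markers were thus low with and without FGF9. Of the 9 measured, 8 were lower in pair 2 than in pair 1 in both groups. The same held for 8 of 9 oligodendrocyte markers, 5 of 6 endothelial markers and 39.1% of all genes. It held for only 2 of 10 astrocyte markers and 2 of 10 neuron markers. For this reason the levels or differences of both pairs are given for the 10 genes at 10 days and for other genes where the pairs lie far apart, and differences are given from limma without a block and, where the call changes, with the pair as a block; a gene is said to rise or fall only where its p adjusted over all 14506 genes by Benjamini-Hochberg was under 0.05 in a named fit.

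RefSeq promoter windows (build GRCr8, 250 bases before to 50 after the annotated start, 5′ to 3′ on the gene's strand) were found for 8 of the 10 genes, the exceptions being A2m and Hp. The windows of Serpina3n and Lcn2, which rose at 10 days with the pair block, are printed beside those of Steap4 and Ptx3, which did not pass in either fit, because these 4 show which of the 3 searched motifs lie near the start in genes of each kind. Capitals mark matches to the STAT site TTCNNNGAA, to the C/EBP site TTGCNNAA or to the NF-kB site, each searched on both strands. The windows lie at chr6:129088142-129088441 on the plus strand (Serpina3n), chr3:36081731-36082030 on the minus strand (Lcn2), chr4:27054720-27055019 on the minus strand (Steap4) and chr2:152797313-152797612 on the plus strand (Ptx3).
Serpina3n: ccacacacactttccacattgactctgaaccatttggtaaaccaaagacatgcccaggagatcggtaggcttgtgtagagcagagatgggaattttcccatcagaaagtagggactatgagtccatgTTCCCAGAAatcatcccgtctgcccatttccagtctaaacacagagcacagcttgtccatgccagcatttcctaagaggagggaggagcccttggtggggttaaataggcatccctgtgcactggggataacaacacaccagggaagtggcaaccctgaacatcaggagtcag
Lcn2: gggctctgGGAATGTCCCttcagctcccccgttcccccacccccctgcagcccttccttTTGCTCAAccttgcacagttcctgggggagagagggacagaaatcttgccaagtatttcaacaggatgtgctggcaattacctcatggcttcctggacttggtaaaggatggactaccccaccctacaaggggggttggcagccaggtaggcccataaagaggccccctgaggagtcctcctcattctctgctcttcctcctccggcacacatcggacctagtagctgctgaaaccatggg
Steap4: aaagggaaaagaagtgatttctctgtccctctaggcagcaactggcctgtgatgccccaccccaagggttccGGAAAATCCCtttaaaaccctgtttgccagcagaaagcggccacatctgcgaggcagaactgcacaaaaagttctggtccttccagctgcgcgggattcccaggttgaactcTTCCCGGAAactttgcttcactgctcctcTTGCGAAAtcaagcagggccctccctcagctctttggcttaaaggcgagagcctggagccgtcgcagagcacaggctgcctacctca
Ptx3: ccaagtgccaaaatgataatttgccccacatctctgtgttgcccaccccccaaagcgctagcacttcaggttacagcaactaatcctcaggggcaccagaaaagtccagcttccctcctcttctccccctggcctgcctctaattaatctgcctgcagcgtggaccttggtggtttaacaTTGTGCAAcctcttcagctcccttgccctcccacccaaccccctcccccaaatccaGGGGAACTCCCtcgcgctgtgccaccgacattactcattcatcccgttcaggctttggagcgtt

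The STAT site was present in 2 of the 8 windows, as TTCCCAGAA 123 bases before the start of Serpina3n and as TTCCCGGAA 66 bases before the start of Steap4, and 8.87% of all 33469 rat windows held it. C/EBP factors are transcription factors that act with STAT3 at liver acute phase genes. Their site lay in 4 of the 8 windows, those of Lcn2 (191 bases before the start), Cp (72), Ptx3 (70) and Steap4 (37), against 10.6% of all windows. The NF-kB site, bound by the transcription factor of interleukin-1 and TNF signalling, lay in the windows of Lcn2 (242 bases before the start), Steap4 (178), Socs3 (161) and Ptx3 (14, as 2 overlapping matches), against 7.51% of all windows. No match of a different motif overlapped another in the printed windows. None of the 3 was found in the windows of Chi3l1 and Stat3. A match is a run of letters and not a measured binding site.

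At 10 days Serpina3n, Lcn2, Chi3l1 and Socs3 were far higher in FGF9 cultures than in controls in both pairs, and their groups did not overlap. Absence of overlap says little with 2 arrays a group (exact permutation p = 0.333), and its share over all genes was not counted. Stat3 was higher in both pairs by less, Steap4 was slightly higher in both, and Cp, A2m, Ptx3 and Hp took opposite signs in the pairs. Without a block 0 of the 10 passed in limma, as did 0% of the 14506 genes; 4 of the 10 and 816 of all genes had an unadjusted p under 0.05. With the pair block 4 of the 10 passed, all of them higher, beside 6.43% of all genes (3.12% higher and 3.31% lower). The 10 were selected on this contrast, so nothing is read from their count. In pair 1 alone, without the AA1 pair, the differences were 4.06 (Serpina3n), 2.86 (Lcn2), 2.91 (Chi3l1) and 1.53 (Socs3). A single pair has no spread of its own. Hence no call at 10 days, here or in the lists below, can be checked without the AA1 pair.

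Serpina3n, a secreted inhibitor of serine proteases that is widely used as a marker of reactive astrocytes in mice, had levels of 9.57 and 9.54 in FGF9 cultures at 10 days, against 5.52 and 5.16 in control cultures. Both control arrays lay below the lower quartile of their own array's genes, which was between 5.57 and 5.70 over the 8 arrays, and both FGF9 arrays lay far above it. The difference was 4.22 ± 0.33 (SE, n = 2 pairs; 18.6-fold; limma adjusted p = 0.066), and with the pair block 4.22 ± 0.24 (adjusted p = 0.00595). Ordered by this difference from the top, it ranked 2 among the 14506 genes, and Lcn2, Chi3l1 and Socs3 ranked 9, 19 and 67. Here and below an SE beside n = 2 pairs is from the fit without a block, which ignores the pairing, unless the block is named.

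Lcn2 encodes lipocalin 2, a secreted carrier of iron-binding siderophores that limits bacterial growth. Its levels were 10.92 and 11.52 in FGF9 cultures at 10 days, against 8.05 and 7.50 in control cultures. The pairs differed by 2.86 and 4.02, so the pair with the AA1 prefix showed the wider gap. The difference was 3.44 ± 0.29 (SE, n = 2 pairs; 10.9-fold; limma adjusted p = 0.066) and passed with the pair block (SE 0.27, adjusted p = 0.0124).

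Chi3l1, which codes for a secreted chitinase-like protein known in humans as YKL-40, had levels of 12.43 and 13.02 in FGF9 cultures at 10 days, against 9.52 and 10.25 in control cultures. The 2 pairs gave nearly the same gap, 2.91 and 2.77. The difference of 2.84 ± 0.46 (SE, n = 2 pairs; 7.17-fold) did not pass without a block (limma adjusted p = 0.305) and passed with the pair block (SE 0.17, adjusted p = 0.0065).

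Socs3, the feedback inhibitor, had levels of 8.26 and 8.28 in FGF9 cultures at 10 days, against 6.73 and 6.11 in control cultures. The FGF9 arrays differed from each other by 0.02 and the controls by 0.62. The difference was 1.85 ± 0.24 (SE, n = 2 pairs; 3.61-fold; limma adjusted p = 0.17) and passed with the pair block (SE 0.18, adjusted p = 0.0173).

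Stat3 itself, the transcription factor, had levels of 11.61 and 12.10 in FGF9 cultures at 10 days, against 11.41 and 11.42 in control cultures. The groups did not overlap, and the gap was 0.20 in pair 1 and 0.68 in the AA1 pair. The difference of 0.44 ± 0.21 (SE, n = 2 pairs; 1.36-fold) passed in neither fit (limma adjusted p = 0.978 without and 0.173 with the block). STAT3 is activated by phosphorylation, which a transcript level does not measure.

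**Figure D1:**
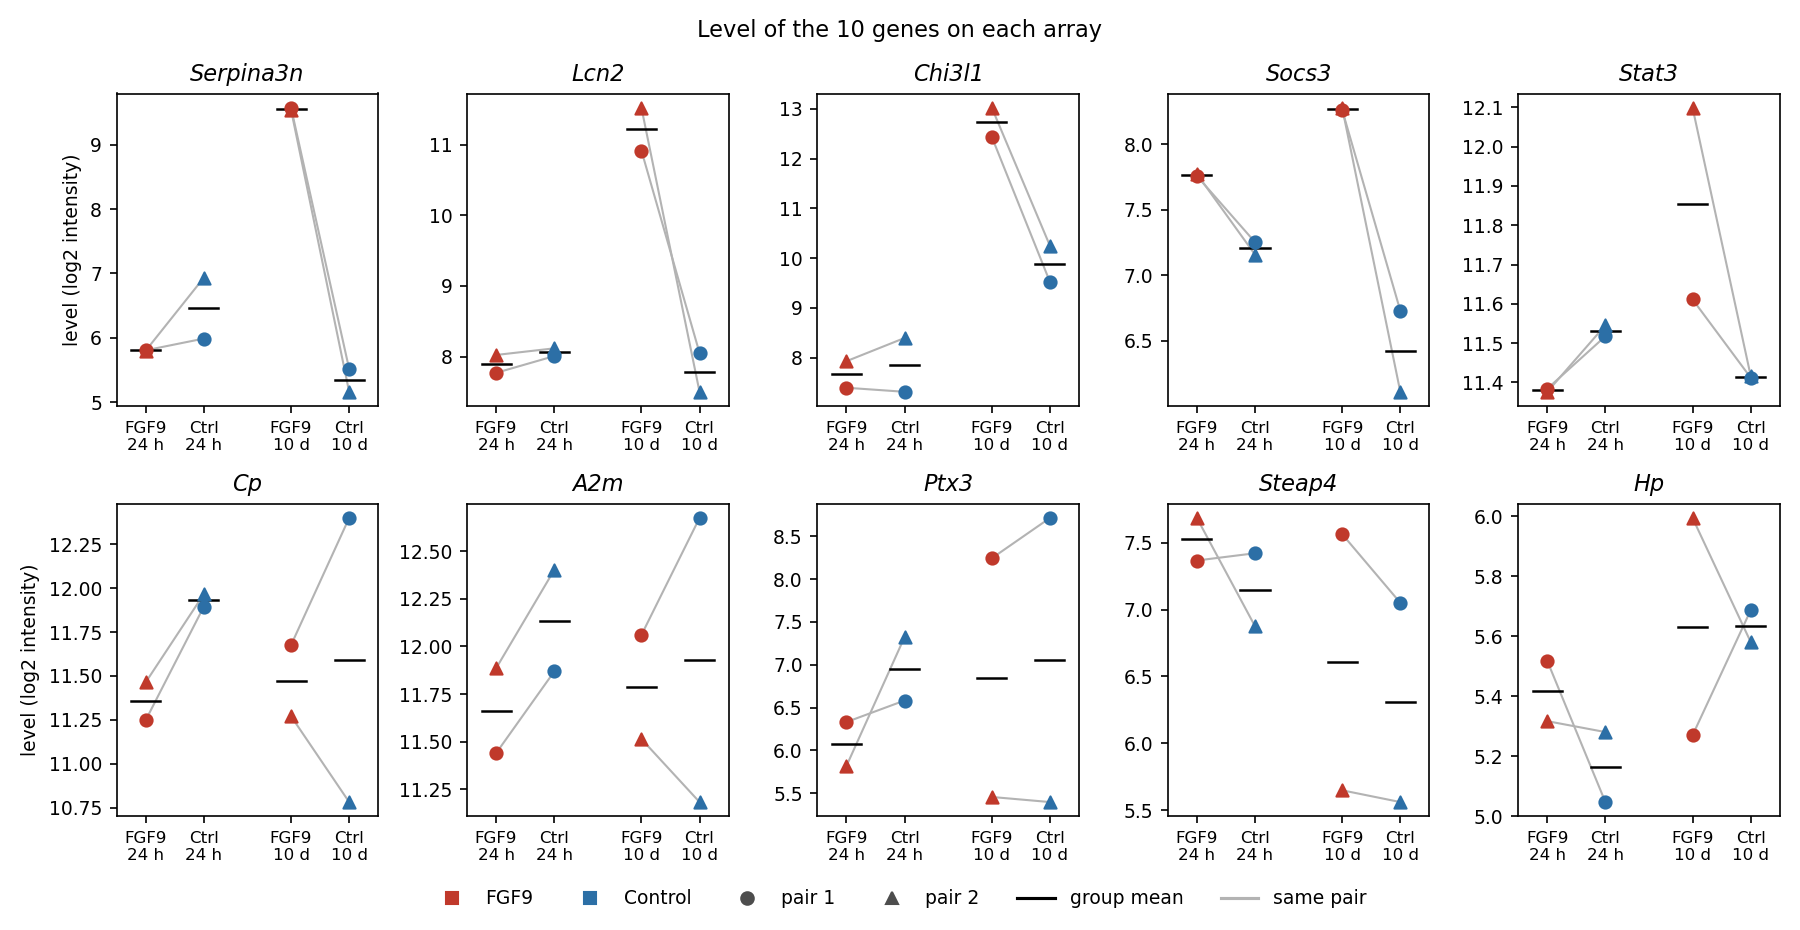
Level of each of the 10 genes (log2 intensity, own axis per gene) on the 8 arrays, with circles for pair 1, triangles for pair 2, black bars for group means and grey lines joining the FGF9 and control array of a pair. The FGF9 arrays at 10 days lie well above all other arrays for Serpina3n (9.57 and 9.54) and Lcn2 (10.92 and 11.52), whereas Ptx3 and Steap4 are low on both arrays of pair 2 at 10 days.

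The other 5 genes did not pass at 10 days in either fit, and for 4 of them the pairs disagreed in sign. Cp encodes ceruloplasmin, the copper-carrying oxidase of ferrous iron, which astrocytes also make in a membrane-anchored form. It had levels of 11.68 and 11.27 in FGF9 cultures, against 12.40 and 10.78 in control cultures, and the difference was -0.12 ± 0.50 (SE, n = 2 pairs; blocked adjusted p = 0.855 in limma). A2m, alpha-2-macroglobulin, a protease trap and a major acute phase protein of the rat, had levels of 12.06 and 11.51 in FGF9 cultures, against 12.67 and 11.18 in control cultures. Its difference was -0.14 ± 0.52 (blocked adjusted p = 0.779 in limma). In Cp and A2m alike the FGF9 levels lay inside the range of the control levels.

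Ptx3, the long pentraxin, is a pattern recognition protein that binds and opsonises microbes. Its levels were 8.24 and 5.46 in FGF9 cultures, against 8.71 and 5.40 in control cultures, a difference of -0.21 ± 1.27 (SE, n = 2 pairs; blocked adjusted p = 0.755 in limma). Pair 2 minus pair 1 was -2.79 within FGF9 cultures and -3.32 within control cultures, far wider than the difference with FGF9, and both AA1 arrays were just below their lower quartile. Steap4, a metalloreductase that reduces iron and copper for uptake, behaved alike across pairs: its levels were 7.57 and 5.65 in FGF9 cultures, against 7.05 and 5.56 in control cultures. Its difference was 0.30 ± 0.73 (blocked adjusted p = 0.514 in limma). Col1a1, a collagen gene of the fibroblast list, had levels of 10.96 and 7.27 in FGF9 cultures and 11.63 and 7.38 in control cultures at the same time, and was therefore low on the same 2 arrays. The part of fibroblast-type cells in the levels of Ptx3 and Steap4 was not tested.

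Hp, haptoglobin, which captures free haemoglobin, was dim throughout. Its levels were 5.27 and 5.99 in FGF9 cultures at 10 days, against 5.69 and 5.58 in control cultures, with a lowest level of 5.05 and a highest of 5.99 over the 8 arrays. The difference was -0.00 ± 0.27 (SE, n = 2 pairs; blocked adjusted p = 0.998 in limma), and arrays this close to the lower quartile set only a weak limit on Hp RNA.

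At 24 h none of the 10 genes passed in either fit. Without a block 0 of the 10 and 280 of all genes had an unadjusted p under 0.05, and 0% of the genes passed; with the pair block the unadjusted counts were 3 and 1800, again with 0% passing. Of the 10, 2 were higher and 6 lower in both pairs, beside 31.8% and 32.9% of all genes. Socs3 was 1 of the 2 that were higher. Its levels were 7.76 and 7.77 in FGF9 cultures, against 7.25 and 7.16 in control cultures, without overlap. The difference was 0.56 ± 0.24 (SE, n = 2 pairs; 1.48-fold; blocked adjusted p = 0.326 in limma), which ranked 487 from the top among all genes. Hp differed by 0.25 ± 0.27 and was higher in both pairs, also without overlap.

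Serpina3n at 24 h had levels of 5.80 and 5.80 in FGF9 cultures, against 5.99 and 6.93 in control cultures, so both FGF9 arrays lay below both controls. Its difference of -0.66 ± 0.33 (SE, n = 2 pairs; blocked adjusted p = 0.367 in limma) came mainly from pair 2, at -1.13 against -0.18 in pair 1. Stat3, with levels of 11.38 and 11.38 in FGF9 cultures against 11.52 and 11.55 in controls, was also lower without overlap (-0.15 ± 0.21). Lcn2 had levels of 7.77 and 8.02 in FGF9 cultures, against 8.01 and 8.12 in controls (difference -0.17 ± 0.29), and its groups overlapped. Chi3l1 had levels of 7.40 and 7.93 in FGF9 cultures, against 7.32 and 8.40 in controls (difference -0.19 ± 0.46), and its pairs took opposite signs. The remaining genes differed by -0.88 ± 1.27 (Ptx3), -0.57 ± 0.50 (Cp), -0.47 ± 0.52 (A2m) and 0.38 ± 0.73 (Steap4). Of these Ptx3, Cp and A2m were lower in both pairs, and the groups of Ptx3 and Cp did not overlap. The share of all genes without overlap at 24 h was not counted either. Markers of astrocytes, the cells in which this response is best known in the central nervous system, averaged 11.00 and 10.59 in FGF9 cultures at 24 h, against 11.56 and 11.56 in controls. All 10 astrocyte markers were lower in both pairs (median difference -0.64), though none passed. Markers of other cells were lower too: 8 of 9 oligodendrocyte markers (median -0.61) and 10 of 10 neuron markers (median -0.19) in both pairs, again with none passing. Their part in the 24 h values was not tested.

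**Figure D2:**
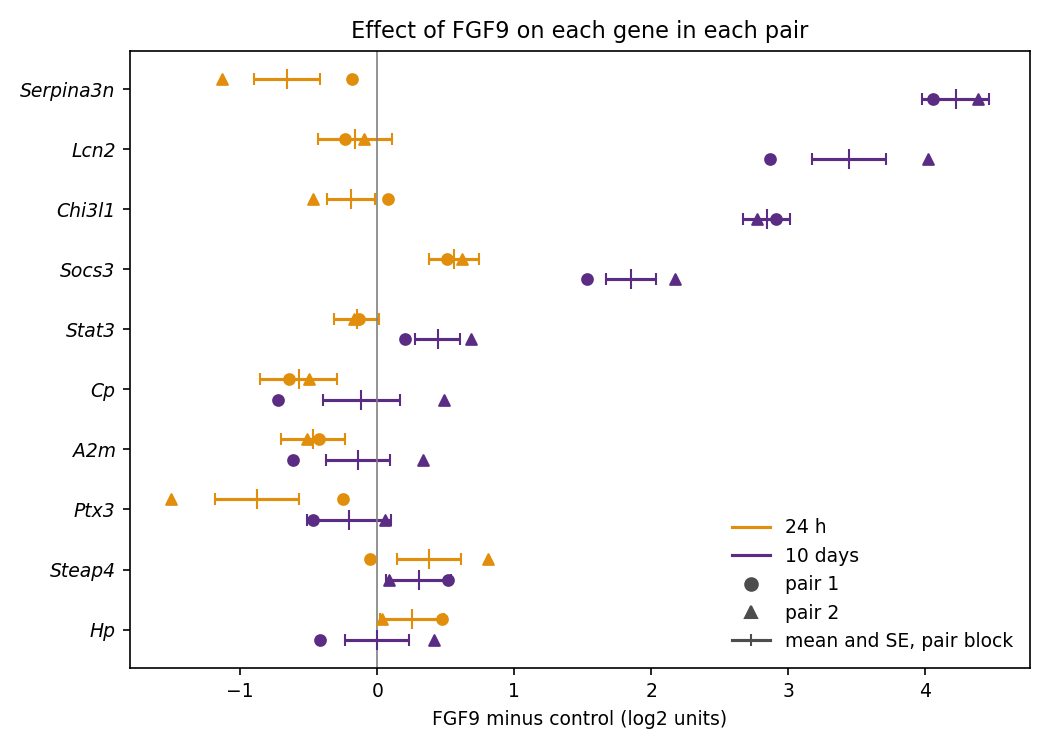
FGF9 minus control for each gene in each pair (log2 units) at 24 h (orange) and 10 days (purple), with the mean and the SE of the fit with the pair block. At 10 days Serpina3n, Lcn2, Chi3l1 and Socs3 sit at 1.53 or more in both pairs, and at 24 h the 2 pairs of Socs3 sit at 0.51 and 0.62.

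The change of the FGF9 difference between the times was tested directly. Without a block 0 of the 10 and 0% of all genes passed, and 4 and 276 had an unadjusted p under 0.05 in limma. With the pair block 2 of the 10 passed, Serpina3n and Chi3l1, beside 0.0483% of all genes, 7 in number; the 10 were selected with this contrast known. Serpina3n differed by 4.88 ± 0.46 more at 10 days than at 24 h (SE; with the block ± 0.34, limma adjusted p = 0.034). Chi3l1 differed by 3.03 ± 0.65 more (with the block ± 0.24, limma adjusted p = 0.0397). For Lcn2 the change was 3.61 ± 0.41 (blocked adjusted p = 0.0965 in limma), for Socs3 1.29 ± 0.34 (0.237) and for Stat3 0.59 ± 0.30 (0.368), and none of these 3 passed. In both pairs Serpina3n, Lcn2 and Stat3 had negative differences at 24 h and positive ones at 10 days, while Socs3 was positive throughout. The 24 h differences of Lcn2 and Stat3 were smaller than their SE.

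Control cultures at 10 days were set against control cultures at 24 h. The 24 h arrays carry CL1 and CL2 and the 10-day arrays CL2 and AA1, so time and prefix cannot be told apart without the block. None of the 10 passed in either fit; with the pair block 0.00689% of all genes did, which is 1 gene, and without it 0%. The unadjusted p of limma was under 0.05 for 3 of the 10 and 415 of all genes without the block, and for 4 and 1990 with it. Chi3l1 averaged 9.89 ± 0.51 in control cultures at 10 days and 7.86 ± 0.76 at 24 h (SD, n = 2 each), a difference of 2.03 ± 0.46 (SE) that ranked 4 from the top. With the block it was 1.30 ± 0.21 (limma adjusted p = 0.128). There the 2 times are linked only through the CL2 prefix, and the FGF9 arrays enter the estimate too. Serpina3n went the other way, with 5.34 ± 0.25 at 10 days and 6.46 ± 0.67 at 24 h, a difference of -1.12 ± 0.33 (with the block -1.26 ± 0.30). Socs3 likewise had 6.42 ± 0.44 at 10 days and 7.20 ± 0.07 at 24 h, a difference of -0.79 ± 0.24 (with the block -0.62 ± 0.23). Ptx3 depended most on the block, with 0.10 ± 1.27 without it and 1.57 ± 0.38 with it (limma adjusted p = 0.184). Thus the FGF9 differences of Serpina3n and Socs3 at 10 days were measured against controls with a lower mean level than at 24 h, and that of Chi3l1 against controls with a higher one.

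The other genes of the loop were taken from lists of ligands, receptors, kinases and inhibitors. These and the later lists were written with earlier results of these data known, so their counts are a description. At 10 days with the pair block 3.12% of all genes rose and 3.31% fell. Among 7 ligands of the interleukin-6 family, none passed at either time. At 24 h 3 of them were higher in both pairs, by over 1 on average: Il11, a cytokine that signals through gp130, had levels of 7.43 and 8.91 in FGF9 cultures, against 5.46 and 5.55 in control cultures. Clcf1, which binds the receptor of ciliary neurotrophic factor, had levels of 7.90 and 8.51 in FGF9 cultures, against 5.97 and 5.59 in controls. Lif, leukaemia inhibitory factor, had levels of 6.76 and 7.79, against 6.15 and 6.09 in controls. The treated and control arrays did not overlap for these 3, whose differences were 2.67 ± 0.60, 2.43 ± 0.26 and 1.16 ± 0.36 (SE, n = 2 pairs; blocked limma adjusted p = 0.14, 0.12 and 0.23). At 10 days the differences were 0.84 ± 0.60, 0.79 ± 0.26 and 0.76 ± 0.36, and for Il11 1.63 in pair 1 and 0.05 in the AA1 pair. The change between the times was not tested for these ligands. Cntf, ciliary neurotrophic factor, was lower in both pairs at both times (-1.06 ± 0.55 at 24 h and -0.87 ± 0.55 at 10 days, the last from -1.56 in pair 1 and -0.17 in the AA1 pair). Il6 lay below the lower quartile on every array and differed by 0.37 ± 0.18 at 24 h and -0.01 ± 0.18 at 10 days, and Osm and Ctf1 differed by -0.02 ± 0.28 and -0.16 ± 0.32 at 10 days.

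Of 6 receptor genes 1 rose at 10 days with the pair block. This was Osmr, the receptor subunit of oncostatin M that pairs with gp130. Its levels were 9.08 and 10.25 in FGF9 cultures at 10 days, against 8.00 and 8.48 in control cultures, a difference of 1.43 ± 0.39 (SE, n = 2 pairs; with the block ± 0.19, limma adjusted p = 0.0213). At 24 h it was higher by 0.50 ± 0.39. Il6st, which encodes gp130, differed by -0.09 ± 0.33 at 10 days and 0.20 ± 0.33 at 24 h. Lifr differed by 0.44 ± 0.49 at 10 days with opposite signs in the pairs, Il11ra1 by 0.30 ± 0.34, Cntfr by 0.06 ± 0.84 and Il6r by -0.19 ± 0.41, and none of these passed.

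Among the 8 JAK kinases and other STATs measured, Jak2, a kinase that phosphorylates STAT3, rose at 10 days with the pair block. Its levels were 10.96 and 10.40 in FGF9 cultures, against 9.98 and 9.51 in control cultures, a difference of 0.94 ± 0.27 (SE, n = 2 pairs; with the block ± 0.13, limma adjusted p = 0.0237). Jak1 differed by 0.02 ± 0.17 and Jak3 by 0.49 ± 0.29. Stat5a was higher by 0.45 in pair 1 and 1.44 in the AA1 pair (0.94 ± 0.41) without passing (blocked adjusted p = 0.103 in limma), and Stat2 was lower in both (-0.30 ± 0.26). At 24 h none of the 8 passed and Jak2 differed by -0.09 ± 0.27.

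Of 12 other inhibitors, the remaining SOCS genes, Cish, PIAS proteins and phosphatases, none passed at either time, and the list's median difference at 10 days was 0.23, against 0.02 over all genes. Socs2 (0.61 ± 0.35) and Socs1 (0.42 ± 0.26), both feedback inhibitors of cytokine receptors, were higher in both pairs at 10 days (0.27 and 0.15 in pair 1, 0.96 and 0.69 in the AA1 pair), as was the phosphatase gene Ptpn2 (0.37 ± 0.18). Ptpn6 was lower in both (-0.58 ± 0.58), by -1.14 in pair 1 and -0.02 in the AA1 pair. At 24 h Socs5 was higher in both pairs by 0.59 ± 0.23.

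Among 19 other genes known as STAT3 targets, 15 were higher in both pairs at 10 days and 1 was lower, beside 33.2% and 30.0% of all genes, and the median difference was 0.45. With the pair block 4 rose and none fell, beside 3.12% and 3.31% of all genes. As the list was written with earlier results known, nothing is read from these counts. Timp1, an inhibitor of matrix metalloproteinases, had levels of 12.77 and 12.47 in FGF9 cultures, against 11.03 and 9.73 in control cultures. Its difference was 2.24 ± 0.41 (SE, n = 2 pairs; with the block ± 0.24, limma adjusted p = 0.0173). Vegfa, a growth factor for blood vessels, had levels of 11.36 and 11.73 in FGF9 cultures, against 10.06 and 10.27 in controls (difference 1.38 ± 0.47, blocked adjusted p = 0.0173 in limma). Cebpd and Junb, both transcription factor genes that respond early to cytokines, passed with smaller differences of 0.73 ± 0.23 and 0.72 ± 0.28 (blocked adjusted p = 0.0449 and 0.0421 in limma). In pair 1 alone the differences were 0.60 (Cebpd), 0.63 (Junb), 1.74 (Timp1) and 1.30 (Vegfa). Myc (0.94 ± 0.30) and Icam1 (0.88 ± 0.51) were higher in both pairs without passing, by 0.46 and 0.54 in pair 1 and by 1.42 and 1.22 in the AA1 pair. Gfap, the astrocyte intermediate filament, took opposite signs in the pairs at 10 days (-0.18 ± 0.38). At 24 h none of the 19 passed and the median difference was 0.09. Timp1 was then higher by 1.04 ± 0.41 and Gfap was lower (-1.26 ± 0.38), each in both pairs.

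**Figure D3:**
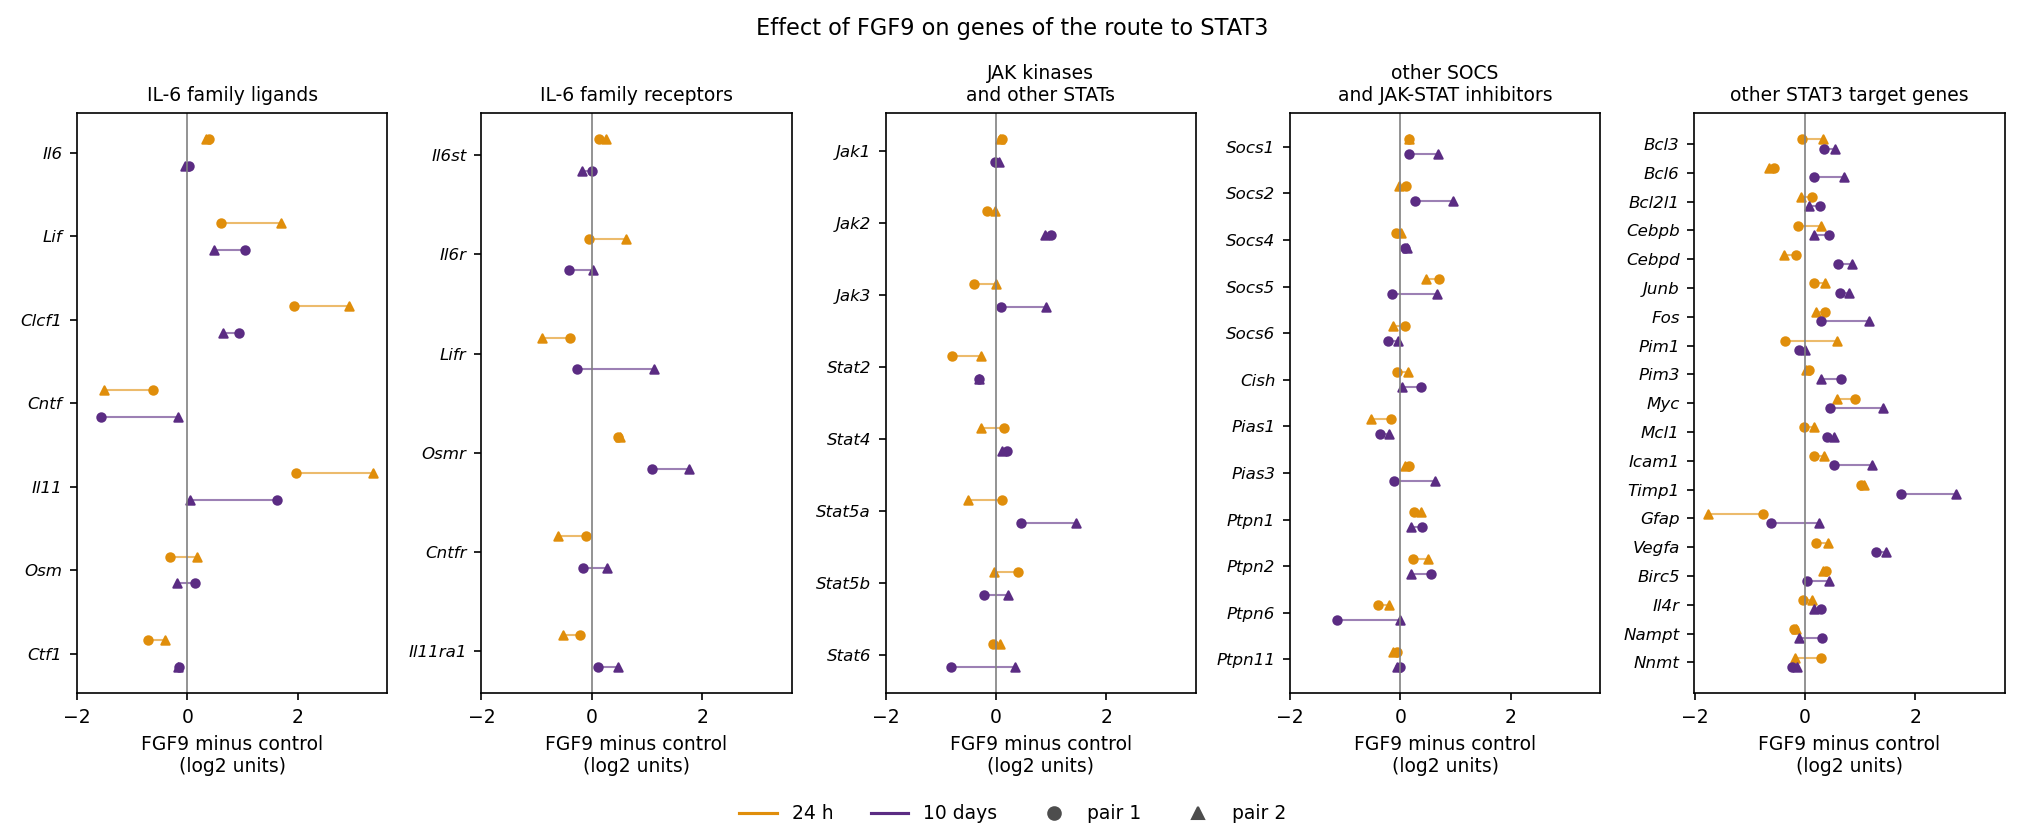
FGF9 minus control (log2 units) in each pair for the ligands, receptors, kinases, inhibitors and targets of the route to STAT3, at 24 h (orange) and 10 days (purple), with a line joining the 2 pairs. The ligands Il11 and Clcf1 lie farthest right at 24 h (means 2.67 and 2.43), and Timp1, Osmr and Vegfa do at 10 days (means 2.24, 1.43 and 1.38).

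Other acute phase genes passed in both directions, and many were dim. Of 18 other positive acute phase genes measured, 9 lay below the lower quartile on every array, beside 17.5% of all genes; these were the largely hepatic genes Orm1, Crp, Fga, Fgb, Fgg, Hpx, Apcs, Serpina1 and Itih4. At 10 days with the pair block 1 rose and 2 fell, and the median difference was 0.16. F3, tissue factor, which starts blood clotting, had levels of 11.65 and 10.90 in FGF9 cultures, against 9.85 and 8.63 in control cultures (difference 2.03 ± 0.71, blocked adjusted p = 0.0148 in limma). C3, the central component of complement, fell, with levels of 6.80 and 7.44 in FGF9 cultures against 8.55 and 9.59 in controls (difference -1.95 ± 0.48, blocked adjusted p = 0.0291 in limma). Itih3, a heavy chain that binds hyaluronan, fell as well (-1.82 ± 0.53, blocked adjusted p = 0.0237 in limma), with 8.55 and 9.82 in FGF9 cultures against 10.91 and 11.10 in controls. In pair 1 alone the differences were 1.80 (F3), -2.36 (Itih3) and -1.75 (C3). Serping1, which inhibits the start of the complement cascade, differed by 0.05 in pair 1 and 1.62 in the AA1 pair (0.84 ± 0.53) and did not pass. Of 6 negative acute phase genes, those that fall in inflamed liver, none passed with all pairs. Tf, transferrin, was higher by 0.40 in pair 1 and 1.85 in the AA1 pair at 10 days (1.12 ± 0.81). Rbp4, the carrier of retinol, was lower in both (-1.47 in pair 1 and -0.31 in the AA1 pair, mean -0.89 ± 1.55). At 24 h none of either list passed, and both pairs of F3 (0.95 ± 0.71) and of Itih3 (-0.91 ± 0.53) had the sign they had at 10 days.

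Several of the 10 genes bind or reduce iron or copper, so 15 other genes of metal handling were read. At 10 days 2 rose with the pair block: Slc39a14, a zinc and iron importer known to be raised by interleukin-6 in mouse liver (0.93 ± 0.37, adjusted p = 0.0454 in limma), and Atp7b, a copper-exporting ATPase that loads ceruloplasmin in liver (0.70 ± 0.26, adjusted p = 0.0408 in limma). In pair 1 alone the differences were 0.60 (Slc39a14) and 0.77 (Atp7b). Hmox1, haem oxygenase, was higher in both pairs by 0.72 ± 0.91 at 10 days and 0.92 ± 0.91 at 24 h without passing. Steap1, a relative of Steap4, was higher in both pairs at 24 h, with levels of 6.82 and 8.20 in FGF9 cultures against 6.37 and 6.09 in controls (1.28 ± 0.47), and differed by 0.10 ± 0.47 at 10 days. Of the 15, 13 were lower in pair 2 than in pair 1 at 10 days with and without FGF9, as were 5 of the 10 acute phase genes and 39.1% of all genes.

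NF-kB is known to induce Lcn2 and Ptx3, and 15 genes of its pathway were read. Il1r1, the signalling receptor of interleukin-1, rose at 10 days with the pair block, with levels of 10.03 and 9.12 in FGF9 cultures against 8.70 and 6.55 in control cultures. Its difference was 1.95 ± 0.71 (SE, n = 2 pairs; blocked adjusted p = 0.0251 in limma). Ccl2, a chemoattractant of monocytes, was higher in both pairs at both times, by 2.02 ± 0.97 at 24 h and 1.54 ± 0.97 at 10 days, without passing. Tnfrsf1a, a TNF receptor, was higher by 0.53 in pair 1 and 1.64 in the AA1 pair at 10 days (1.09 ± 0.33, blocked adjusted p = 0.0823 in limma). The list's median difference was 0.32 at 10 days and 0.15 at 24 h, and no gene of it passed at 24 h.

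A further list of 13 genes held family relatives of the 10 genes and the receptor gene Lrp1, which is not a relative. At 10 days with the pair block 1 of the 13 rose and 2 fell, and the median difference was -0.03. Nptx2, a neuronal pentraxin, rose by 1.71 ± 0.29 (adjusted p = 0.0143 in limma). Ptgds, a lipocalin that also makes prostaglandin D, fell (-1.04 ± 3.24, with the block ± 0.13, adjusted p = 0.0197 in limma); its levels were 12.61 and 5.63 in FGF9 cultures and 13.60 and 6.73 in controls, so the pairs lay far apart. Serpini1, a neuronal serpin, fell too (-0.90 ± 0.51, blocked adjusted p = 0.0419 in limma). The closest measured paralogues of Serpina3n, Serpina3c (0.12 ± 0.43) and Serpina3m (0.41 ± 0.20), did not pass at 10 days. Of the relatives of A2m, Pzp and Mug1 lay below the lower quartile on every array. How far probes of Serpina3n or A2m also bind transcripts of paralogues is not given in the sources used here. At 24 h none of the 13 passed, and Apod, another lipocalin, differed by 0.09 in pair 1 and 2.17 in pair 2 (1.13 ± 0.98), and at 10 days by 1.97 and 2.02 (1.99 ± 0.98, blocked adjusted p = 0.0561 in limma).

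Of 21 other reactive astrocyte genes 4 rose at 10 days with the pair block and none fell, with a median difference of 0.40. Besides Timp1 and Osmr, which this list shares, these were Cd44 and Emp1. Cd44, the hyaluronan receptor, had levels of 12.17 and 10.62 in FGF9 cultures, against 10.04 and 8.00 in control cultures (difference 2.38 ± 0.76, blocked adjusted p = 0.0173 in limma). Emp1, a membrane protein, was higher by 1.63 ± 0.83 (blocked adjusted p = 0.019 in limma). Nes, the intermediate filament nestin, was higher by 1.06 in pair 1 and 3.22 in the AA1 pair (2.14 ± 0.50) without passing (blocked adjusted p = 0.0552 in limma). Over all pathway lists 17 of the 135 genes measured passed at 10 days with the pair block, beside 6.43% of all genes. These calls rest on both pairs and cannot be checked without the AA1 pair. At 24 h no gene of the list passed; Gbp2, a GTPase induced by interferon, was higher in both pairs by 1.55 ± 0.69 and Hspb1, a small heat shock protein, was lower in both (-1.27 ± 0.75).

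Markers of the cell types that the cultures could hold were read beside these results. No astrocyte, oligodendrocyte or neuron marker lay below the lower quartile on every array. Astrocyte markers averaged 11.82 and 12.20 in FGF9 cultures at 10 days, against 11.85 and 11.84 in controls. Of the 10, 1 (Fgfr3) rose with the pair block, and in pair 1 alone it differed by 1.08. Neuron markers averaged 9.73 and 10.51 in FGF9 cultures at 10 days, against 10.64 and 11.46 in controls; all 10 were lower in both pairs and 8 fell with the block, with a median difference of -0.93 over the list. In pair 1 alone Rbfox3, Nefl, Nefm and Nefh differed by -1.18, -1.16, -1.41 and -1.24. Snap25, Syt1, Slc17a6 and Gad1 differed there by -0.71, -0.87, -0.73 and -0.90. No call at 10 days on these or the following markers can be checked without the AA1 pair, since a single pair has no spread. At the same time markers of oligodendrocyte precursors averaged 9.39 and 9.86 in FGF9 cultures, against 8.84 and 8.76 in controls, and 1 of 5 (Cspg4) rose. Of these 5, 4 were higher in both pairs, and Pdgfra was lower by -0.52 in pair 1 and -0.01 in the AA1 pair. Schwann cell markers averaged 7.51 and 8.28 in FGF9 cultures, against 7.14 and 7.16 in controls. Of the 5, 2 rose, Pmp2 and Pmp22, the last by 0.90 in pair 1 and 2.15 in the AA1 pair. Another 2, Ngfr (-0.28) and Egr2 (-0.03), were lower in both pairs without passing, and Prx took opposite signs. Of 9 fibroblast, meningeal and pericyte markers 2 rose (Rgs5 and Cspg4, where Cspg4 is shared with the precursor list), while 3 were lower in both pairs without passing, Col1a1 (-0.39), Col1a2 (-0.46) and Pdgfrb (-0.78). Lum was higher by 0.96 in pair 1 and 0.38 in the AA1 pair without passing. The part of these shifts in the levels of the 10 genes was not tested.

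No marker of oligodendrocytes, of microglia and macrophages or of endothelium passed at either time with all pairs. The endothelial gene Kdr took opposite signs at 10 days, with -2.88 in pair 1 and 0.45 in the AA1 pair. Oligodendrocyte markers averaged 10.26 and 8.78 in FGF9 cultures at 10 days, against 10.54 and 8.86 in controls. Microglia and macrophage markers averaged 8.18 and 8.18 in FGF9 cultures, against 8.68 and 7.79 in controls, so the groups overlapped. Endothelial markers averaged 5.89 and 5.66 in FGF9 cultures, against 6.39 and 5.23 in controls. Neutrophils store Lcn2, and hepatocytes are the main source of Hp, A2m and Serpina3-type inhibitors in the body. Of the neutrophil markers 5 of 8 (Mpo, S100a8, S100a9, Ltf and Ngp) and of the hepatocyte markers 4 of 7 (Alb, Serpina1, Cps1 and Tat) lay below the lower quartile on every array. The means of these 2 lists at 10 days were 5.34 and 5.14 in FGF9 cultures, against 5.12 and 5.21 in controls, for neutrophils, and 5.42 and 5.23, against 5.70 and 5.21, for hepatocytes. No gene of either passed. Of the 8 neutrophil markers 2 were higher and 1 lower in both pairs at 10 days. Csf3r was higher by 0.57 in pair 1 and 0.58 in the AA1 pair (blocked adjusted p = 0.0579 in limma). Ttr of the hepatocyte list had levels of 6.97 and 5.81 in FGF9 cultures, against 9.42 and 5.49 in controls.

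**Figure D4:**
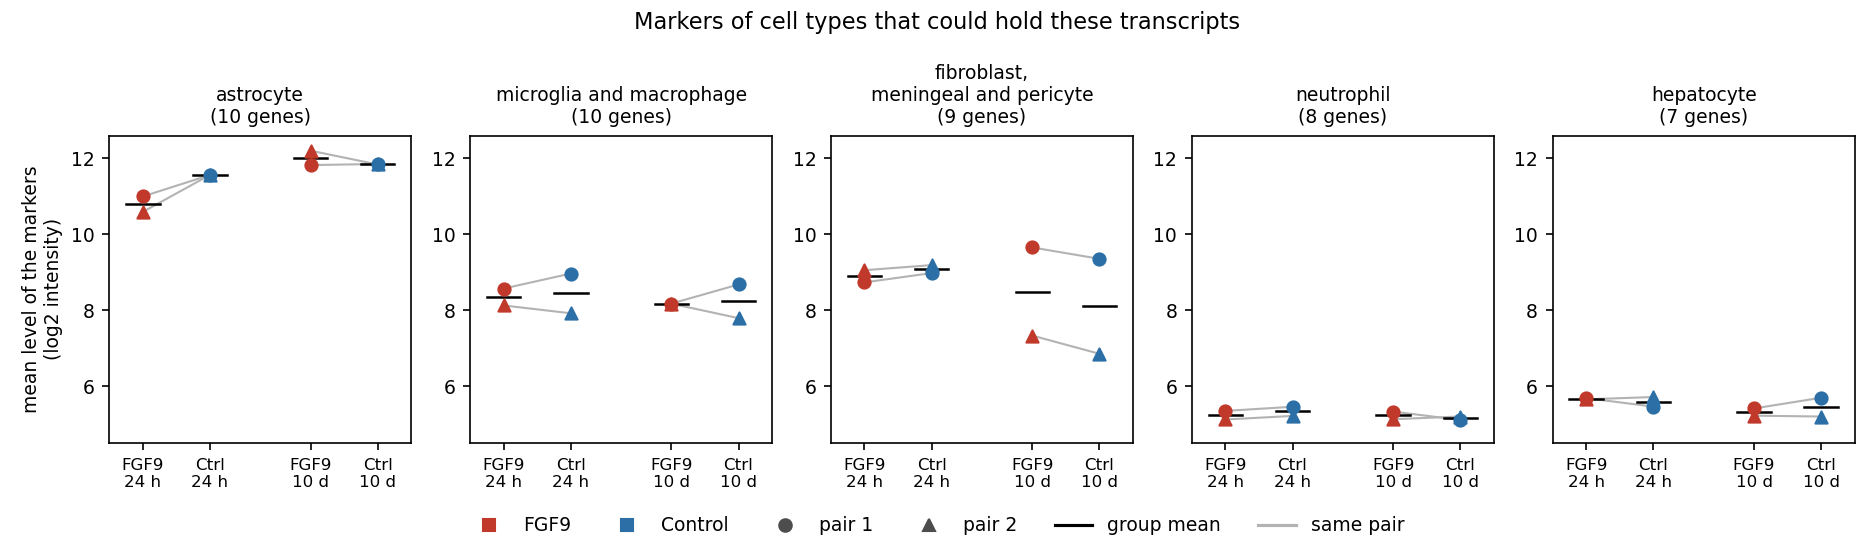
Mean level (log2 intensity) of 5 marker lists on each array, with circles for pair 1, triangles for pair 2 and bars for group means. Fibroblast, meningeal and pericyte markers are low on both AA1 arrays at 10 days (7.34 with FGF9, 6.86 in control). The means of the neutrophil and hepatocyte lists stay near 5 to 6 on all 8 arrays, though single markers such as Ttr do not.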

How the data were processed

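Total RNA of 8 samples was measured on 8 arrays. The deposited log2 values were made by the authors with GCRMA in Partek 6.5, per the submitters' processing notes; the log2 scale is read from the values (3.61 to 14.65), and no further step is given in the sources used here. Array medians lay between 6.62 and 6.73, and the number of arrays limits the precision. Of 29214 features 15310 had 1 symbol in the platform annotation, 323 several and 13581 none; an Entrez match to RefSeq, made for 15279, changed 0 symbols. The highest-mean feature was kept for the 527 genes with more than 1, which left 14506 genes.

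Groups and replicate numbers came from the titles. Using limma 3.58.1 under R 4.3.3 (lmFit, then eBayes), the 4 group means were fitted to the 8 arrays, leaving 4 residual degrees of freedom. P-values were adjusted by Benjamini-Hochberg across the 14506 genes, and a gene passed under 0.05. A fixed block for the pair, as given by the name prefix, was an alternative that leaves 2 residual degrees of freedom. The pairing rests on that shared prefix and on a check: after subtraction of group means, the 2 arrays of equal number correlated at 0.757 (24 h) and 0.819 (10 days) over genes. The median residual SD was 0.30 without and 0.145 with the block. SEs are those of the fit without a block unless the block is named. An exact permutation test of 2 against 2 arrays cannot go below p = 0.333, so none was used.

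The 10 genes, the 11 pathway lists and the 10 marker lists (219 of 241 entries measured, some genes in more than 1 list) were chosen with earlier results of these data known. All 10 genes are described. From each list up to 4 genes per comparison were named, namely the largest differences whose sign was shared by both pairs. Ligands, receptors and kinases may be named in full. Genes that passed, genes that were below the lower quartile, paralogues and Col1a1 are named besides. Promoter windows are from RefSeq. The fits were tested on simulated data. Alternatives were the fixed and random block, leaving out each array or pair, quantile normalization, array medians, a filter on dim genes, the mean of features and an intensity trend.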

Additional observations from a re-analysis of the deposited data

Results flagged for a closer look

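The FGF9 difference of 3 genes was far from the same at the 2 times. For Serpina3n it was larger by 4.88 at 10 days than at 24 h, which passed the test of the difference in limma with the pair block, and both pairs were negative at 24 h and positive at 10 days. For Chi3l1 it was larger by 3.03, which passed the same test. For Lcn2 it was larger by 3.61, and both pairs were of opposite sign at the 2 times, a pattern that was not tested as such and whose difference did not pass with the block. Stat3 showed the same turn of sign in both pairs with a change of 0.59, which likewise did not pass. The 24 h differences of Lcn2 (-0.17 ± 0.29) and Stat3 (-0.15 ± 0.21) were smaller than their SE, so their sign at 24 h cannot be read. That of Serpina3n was only -0.18 in pair 1. Over all genes 32.9% were lower in both pairs at 24 h and 33.2% were higher in both at 10 days.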

How the results depend on the processing

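At 10 days 0 of the 10 genes passed without a block. The count was 4 (Serpina3n, Lcn2, Chi3l1 and Socs3) with the replicate block, with the random block, with each of the 4 pairs left out of the blocked fit and with quantile normalization plus the block, a setting chosen after seeing the data. It was 2 (Serpina3n and Lcn2) with array medians subtracted and 0 whichever array was left out of the fit without a block. Over all genes the counts at 10 days were 933 with the block, 151 with the random block, 469 to 1506 with a pair left out and 6 with array medians subtracted. For the difference between times the 0 of the fit without a block became 2 with the replicate block, 1 with the random block, 1 without pair 1 at 24 h, 0 without pair 2 at 24 h, 4 without pair 1 at 10 days, 2 without pair 2 at 10 days and 2 with quantile normalization plus the block. Beside these, the counts over all genes were 7, 4, 1, 0, 322, 9 and 8 in the same order, so the 4 go with 322. At 24 h none of the 10 passed under any setting, while over all genes 237 passed in the blocked fit with either 10-day pair left out, and 0 under the other settings. For control time none of the 10 and at most 2 of all genes passed. The 4 genes kept their sign at 10 days throughout, and with an array left out spanned 4.04 to 4.40 (Serpina3n), 3.14 to 3.74 (Lcn2), 2.48 to 3.20 (Chi3l1) and 1.54 to 2.16 (Socs3). Leaving out an array turned the sign of 5 of the 10 at 10 days (Cp, Ptx3, Steap4, A2m and Hp). Of the list medians at 10 days, those of the JAK and STAT, inhibitor, STAT3 target, positive acute phase and NF-kB lists kept their sign under every setting, and the other 6 turned under at least 1. The blocked control time contrast could not be had without pair 2 at 24 h or pair 1 at 10 days, and Hp is absent where dim genes were dropped. The cause of these changes was not tested. A fit with an array or pair left out holds a single array in a group, which has no spread of its own. Its counts borrow the spread of the other arrays and are no independent check of the calls. With 2 arrays a group the SE without a block ran from 0.21 to 1.27 over the 10 genes, so smaller differences cannot be read.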

Other observations

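The genes whose levels ran closest to 3 of the 10 over the 8 arrays were found among 3941 genes with an SD of at least 0.5, as a description with no test. For Serpina3n they were Gnb4, a G protein subunit (Pearson r = 0.97), Ptn, the growth factor pleiotrophin (0.96), and Hsd11b1, an enzyme that regenerates active glucocorticoid (0.96). For Lcn2 they were Ppp1r2, an inhibitor of a protein phosphatase (0.99), Gnb4 (0.99) and Hsd11b1 (0.99). All 4 of these genes were highest on the 2 FGF9 arrays at 10 days. Hsd11b1 had levels of 11.29 and 11.96 in FGF9 cultures at 10 days, against 8.73 and 8.14 in control cultures, and 8.82 and 8.28 in FGF9 cultures at 24 h, against 8.36 and 8.78 in controls. Its FGF9 arrays at 10 days were thus the only ones above 9.

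For Socs3 the closest were Sbno2, a transcriptional co-regulator (0.97), Timp1 (0.97) and Sema3e, a semaphorin (0.97). Sbno2 had levels of 8.81 and 9.10 in FGF9 cultures at 24 h, against 8.40 and 8.42 in control cultures, and 9.22 and 8.98 in FGF9 cultures at 10 days, against 7.90 and 7.48 in controls. As with Socs3, its FGF9 arrays lay above their controls at both times, by 0.54 and 1.41 on average. Among the 10 genes themselves, Serpina3n and Lcn2 correlated at 0.97 over the 8 arrays and Cp and A2m at 0.95, while Serpina3n and A2m correlated at 0.02.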
